A study of Mus musculus with 12 samples.

Results

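The 10 genes described here, used to mark resident and alternatively activated macrophages, were followed in mouse fat grafts: Mrc1, Adgre1, Cd163, Folr2, Timd4, Csf1r, Cd68, Retnla, Ear2 and Clec10a. They were taken by gene symbol, and all 10 are among the 19547 genes of the table. Each had reads in all 12 libraries, and all 10 passed the filter on low counts, so none drops out of the comparisons. The grafts came from wild-type C57BL/6 mice aged 16 weeks and were taken at 8 weeks of grafting. The 4 control libraries are fat grafts alone, the 4 CAL libraries (cell-assisted lipotransfer) are grafts with added ASC, and the 4 CAL_Dll4i libraries are grafts with added ASC and inhibition of Dll4, a Notch ligand of the endothelium. ASC commonly stands for stem or stromal cells of adipose origin. The labels give neither the source of the cells nor the means of inhibition, and they do not say whether each sample is a separate animal. The p-values therefore measure only the spread between these samples, which may be technical.

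Fat tissue holds macrophages that live there for long periods and others that arrive as blood monocytes, and both depend on the receptor Csf1r for survival. Cells that sit along vessels carry scavenger receptors and lectins such as Cd163, Mrc1, Folr2 and, in some tissues, Timd4, and they clear debris, dying cells and haemoglobin. Interleukin 4 and interleukin 13 act through the factor Stat6 to drive the alternative state, in which Retnla, Clec10a and Mrc1 are classic readouts. In transplanted fat, macrophages remove dead adipocytes and accompany new vessels.

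Macrophage RNA was abundant in all 3 groups. All 15 genes of a general macrophage reference list, such as Lyz2, Ctss and Spi1, were measured, and their summed level ran from 5909 to 6255 CPM in control, from 5729 to 6841 in the CAL grafts and from 5924 to 7042 in CAL_Dll4i. CPM is the count scaled to a common library size after TMM, a correction for differences in library makeup. Total counts ran from 55883051 to 70804141 per library. Skeletal muscle genes stood more than 10 times above their median over libraries in 3 libraries, CAL replicates 1 and 2 and CAL_Dll4i replicate 3, at 115, 215 and 407.5 CPM in sum. Tissue RNA cannot tell fewer macrophages from less RNA per macrophage, here or in any result that follows.

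The stretch just upstream of the start is shown for 4 genes, from RefSeq on GRCm38.p6 (the assembly of mm10): Mrc1 and Cd68 as genes whose level hardly moved, Ear2 as the gene that differed most clearly between groups, and Retnla as a gene that varied widely within groups. Capitals mark matches on either strand to GAGGAA (the core bound by PU.1, the macrophage lineage factor made from Spi1), to TTCNNNNGAA (the Stat6 element) and to TTGCNNAA (the C/EBP element). Each run is 250 bases, 5′ to 3′ on the gene's strand.
Mrc1, chr2:14229164-14229413, plus strand: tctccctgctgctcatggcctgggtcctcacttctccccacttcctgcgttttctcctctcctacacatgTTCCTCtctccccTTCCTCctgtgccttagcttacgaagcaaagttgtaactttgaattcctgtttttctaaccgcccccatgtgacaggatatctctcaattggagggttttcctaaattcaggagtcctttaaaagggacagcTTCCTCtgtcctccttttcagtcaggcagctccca
Cd68, chr11:69666171-69666420, minus strand: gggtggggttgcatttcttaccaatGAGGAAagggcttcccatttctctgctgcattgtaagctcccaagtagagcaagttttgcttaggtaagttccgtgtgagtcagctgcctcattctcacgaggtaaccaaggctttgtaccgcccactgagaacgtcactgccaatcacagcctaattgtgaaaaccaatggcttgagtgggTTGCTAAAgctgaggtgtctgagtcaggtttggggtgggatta
Ear2, chr14:44102404-44102653, plus strand: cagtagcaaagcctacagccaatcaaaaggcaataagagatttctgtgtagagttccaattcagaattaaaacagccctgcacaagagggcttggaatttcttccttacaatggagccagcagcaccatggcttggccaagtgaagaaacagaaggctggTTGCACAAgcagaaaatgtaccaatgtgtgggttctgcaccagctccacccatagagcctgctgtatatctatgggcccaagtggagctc
Retnla, chr16:48842359-48842608, plus strand: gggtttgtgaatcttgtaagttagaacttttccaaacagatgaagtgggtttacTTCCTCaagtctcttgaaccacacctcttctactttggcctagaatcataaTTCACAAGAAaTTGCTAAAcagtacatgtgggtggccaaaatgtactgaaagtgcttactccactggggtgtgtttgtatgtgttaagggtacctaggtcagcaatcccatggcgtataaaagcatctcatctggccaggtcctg

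The Mrc1 stretch held 3 PU.1 cores, and that of Cd68 held 1 PU.1 core and 1 C/EBP element. Ear2 had 1 C/EBP element, and Retnla had 1 of each motif, with the Stat6 and C/EBP elements 1 base apart. The stretches of Cd163, Timd4 and Folr2 (Folr2 with both of its listed starts) held none of these letters. Of 32851 mouse promoters of the same length, 23.2% hold the PU.1 core, 5.85% the Stat6 element and 9.56% the C/EBP element, so single matches are common. A match describes the letters and is not a site of binding. Promoters matched for 7 of the 10 genes.

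On the TPM scale, which is scaled for gene length, the 10 genes spanned a wide range. The libraries were made by capture of exonic sequence, and how well each gene was captured was not measured. The order below is therefore one of TPM and may differ from that of RNA amount. Cd68, the lysosomal glycoprotein of phagocytes, led with a median of 1084 TPM over the 12 libraries (914.5 to 1240.0), above every other member in every library. Adgre1, which encodes the F4/80 receptor, had a median of 380.3, Ear2 354, Mrc1 297 and Csf1r 273. These 4 overlap in range, and Adgre1 exceeded Ear2 in only 6 of 12 libraries, while Ear2 exceeded Mrc1 in 9 and Mrc1 exceeded Csf1r in 9. Csf1r in turn stood above Clec10a in all 12 libraries with no overlap in range. Clec10a had a median of 82.2 TPM, Folr2 46.9 and Retnla 32.15, and Folr2 exceeded Retnla in 7 of 12 libraries.

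Cd163 and Timd4 had the lowest median TPM of the 10. Cd163, the receptor for haemoglobin bound to haptoglobin, had a median of 4.63 TPM, and Timd4, the phosphatidylserine receptor of long-lived resident macrophages, had 0.859, resting on 25 to 122 counts per library. Both lay below Retnla in all 12 libraries. By group mean the order was the same in control and CAL_Dll4i, while in CAL Ear2 (516.5 ± 88.75 TPM, SD, n = 4) stood above Adgre1 (434 ± 49.6) and Folr2 above Retnla.

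**Figure D1:**
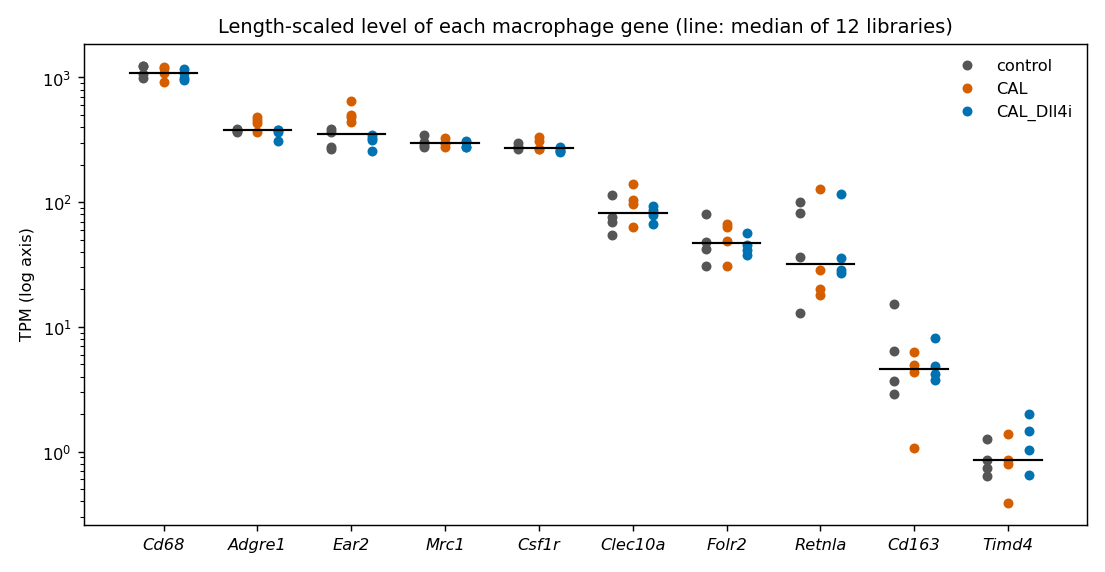
TPM (log axis) of the 10 genes, ordered by the median over 12 libraries (black line), with 1 point per library and colours for control, CAL and CAL_Dll4i. Cd68 sits alone at the top at a median of 1084 TPM, and Timd4 is lowest at 0.859.

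How much each gene varied also set the members apart. From the lowest to the highest of 12 libraries, Csf1r spanned 1.22-fold in CPM, Mrc1 1.23-fold, and Adgre1 and Cd68 1.39-fold each. Ear2, Clec10a and Folr2 spanned 2.41-fold, 2.5-fold and 2.62-fold. Timd4 spanned 5.22-fold, Retnla 9.56-fold and Cd163 13.4-fold. The resident marker Mrc1 was thus among the steadiest genes, and Cd163, also a scavenger receptor of resident cells, was the most variable.

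The gene positions on GRCm38 bear on what the counts can hold, since the counting is not stated to use strand. Cd68 (Entrez gene 12514) lies on chromosome 11 at 69664213 to 69666170, Clec10a (17312) on chromosome 11 at 70166623 to 70170836, Timd4 (276891) on chromosome 11 at 46810786 to 46844333, Ear2 (13587) on chromosome 14 at 44102654 to 44103531 and Retnla (57262) on chromosome 16 at 48842609 to 48844461. No other annotated gene overlaps these 5. Mrc1 (17533, chromosome 2, 14229414 to 14332023) contains Mir511, Adgre1 (13733, chromosome 17, 57358581 to 57483529) overlaps Gm18069 and Gm20243, and Cd163 (93671, chromosome 6, 124304636 to 124330529) overlaps Gm52877. Csf1r (12978, chromosome 18, 61105572 to 61131139) overlaps Mir6983 and Gm52352, and Folr2 (14276, chromosome 7, 101839988 to 101857190) overlaps Gm10602.

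Ear2 has close relatives, and 41.5% of the 50-base windows of its GENCODE transcripts also occur in those of other genes, with 26.0% of all its windows found in Ear10. Its counts are therefore uncertain by the reads that the authors' counting could split. Ear10 was listed at 1.04 to 2.68 CPM and Ear1 at 0.162 to 0.617, against 78.9 CPM or more for Ear2. These values come from the same counting, so they cannot show how many shared reads were given to Ear2. Clec10a shares 8.49% of windows with its neighbour Mgl2 (8.79 to 21.8 CPM), Csf1r 14.3% with Hmgxb3, and Folr2 52.6% with the overlapping Gm10602.

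The receptors that define macrophages as a class were close to level across the 3 groups. Csf1r, the receptor for Csf1 and Il34, read 471, 421, 441 and 449 CPM in control, 513, 439.8, 513 and 426 in the CAL grafts and 430.4, 447.5, 435 and 452 in CAL_Dll4i. The groups overlap, with 2 CAL libraries above all others. Cd68 read 496, 622, 626 and 547 CPM in control, 452, 570.3, 629 and 621.5 in the CAL grafts and 541, 604, 513 and 600.4 in CAL_Dll4i, again overlapping.

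Mrc1, the mannose receptor CD206, had the highest CPM of the 10 and nearly the same mean in each group. It read 625.5, 609.5, 752 and 671 CPM in control, 697, 635, 681 and 649.7 in the CAL grafts and 645, 681, 709 and 659.8 in CAL_Dll4i. The means were 665 ± 64.1, 666 ± 28.2 and 674 ± 27.8 CPM (SD, n = 4 each). Its log2 fold change was 0.00 for CAL against control, with a 95% interval from -0.14 to 0.15.

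Adgre1 stood somewhat higher in CAL. It read 480.1, 478.2, 484.2 and 466.0 CPM in control, 533.3, 484.6, 598.5 and 612.4 in the CAL grafts and 440.9, 485.5, 492.0 and 521.0 in CAL_Dll4i. The control libraries lie in a narrow band, and the lowest CAL library, replicate 2, clears the highest control by 484.6 against 484.2, so the lack of overlap hangs on a small margin. CAL and CAL_Dll4i overlap.

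Ear2, an eosinophil-associated ribonuclease also made by macrophages, differed most clearly. It read 113, 78.9, 81.6 and 108 CPM in control, 142.5, 134.6, 149 and 189.9 in the CAL grafts and 80.7, 93.7, 107.5 and 105 in CAL_Dll4i. All 4 CAL libraries lie above all 8 others, and control and CAL_Dll4i overlap. The means were 95.5 ± 17.8, 154 ± 24.7 and 96.7 ± 12.2 CPM (SD, n = 4 each).

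**Figure D2:**
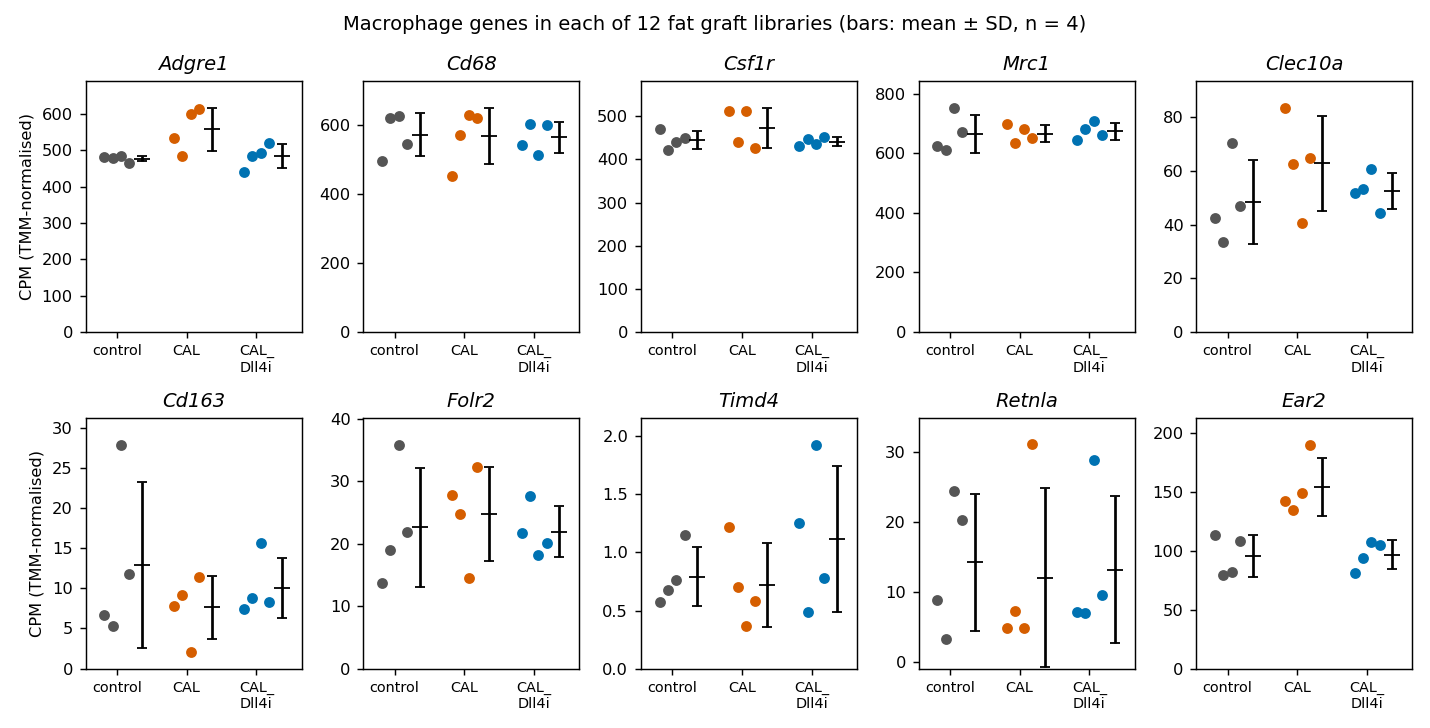
CPM of each gene in every library (1 point per library) with the group mean ± SD (n = 4) to the right of the points, for control, CAL and CAL_Dll4i. Ear2 in CAL runs from 134.6 to 189.9, above all other libraries. Mrc1, Cd68 and Csf1r are close to level, and Cd163 and Retnla vary most by fold between libraries.

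The lectin Clec10a (MGL1), which binds galactose-type sugars and is shared with dendritic cells, read 42.5, 33.5, 70.5 and 47.1 CPM in control, 83.5, 62.4, 40.5 and 64.7 in the CAL grafts and 51.9, 53.3, 60.6 and 44.4 in CAL_Dll4i. Folr2, a folate receptor of resident macrophages, read 13.7, 19.0, 35.8 and 21.85 in control, 27.75, 24.7, 14.4 and 32.2 in the CAL grafts and 21.7, 27.6, 18.2 and 20.1 in CAL_Dll4i. Both genes overlap across all groups and were low in CAL replicate 3.

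Cd163 read 6.66, 5.31, 27.9 and 11.8 CPM in control, 7.76, 9.18, 2.08 and 11.4 in the CAL grafts and 7.395, 8.79, 15.6 and 8.33 in CAL_Dll4i. A single control library is the highest and CAL replicate 3 the lowest, and all groups overlap. Timd4 read 0.575, 0.674, 0.765 and 1.15 in control, 1.22, 0.7004, 0.369 and 0.578 in the CAL grafts and 1.25, 0.488, 1.93 and 0.780 in CAL_Dll4i, overlapping as well.

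Retnla (RELM-alpha, a secreted product of alternative activation) varied several-fold within each group. It read 8.82, 3.26, 24.4 and 20.25 CPM in control, 4.73, 7.29, 4.785 and 31.1 in the CAL grafts and 7.14, 7.01, 28.8 and 9.57 in CAL_Dll4i. Each group held both low and high libraries, and in CAL the SD (12.8) exceeded the mean (11.99). CAL_Dll4i replicate 3, its highest library in that group, is also the library with the most muscle RNA, and the part of that in the value was not tested.

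CAL against control asks what added ASC does to these genes. None of the 10 was called by edgeR's quasi-likelihood test at a Benjamini-Hochberg adjusted p under 0.05, where 0.00539% of all 18551 tested genes were. At an unadjusted p under 0.05 there were 2 members, Ear2 and Adgre1, against 14.6% of all genes. The same 2 did not overlap between groups, against 7.35% of all genes. Estimates were higher in CAL for 6 and lower for 4, with a median log2 fold change of 0.04 beside -0.01 over all genes.

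Ear2 was 1.61-fold higher in CAL, 0.69 ± 0.15 on the log2 scale (SE), with an edgeR adjusted p of 0.132. DESeq2 called Ear2 (adjusted p = 0.0012), as it did 3.75% of the 16869 genes it adjusted, and voom with sample weights called it too (adjusted p = 0.045), as it did 0.474% of genes. Adgre1 was 0.22 ± 0.07 higher (log2 fold change ± SE, edgeR adjusted p = 0.215) and was called by neither. Estimates for the other 8 ran from -0.76 ± 0.59 for Cd163 to 0.38 ± 0.24 for Clec10a (log2 fold change ± SE), none past an unadjusted p of 0.05. Both ends moved with single libraries. Cd163 had -0.058 without control replicate 3. Clec10a stayed above 0 with any library left out, from 0.21 without CAL replicate 1 to 0.61 without control replicate 3. Clec10a also had 0.12 without the 3 libraries that hold muscle RNA and 0.057 with the level of the adipocyte genes as a covariate. The intervals of the 8 are wide for the variable genes, from -2.06 to 0.54 for Cd163 and from -2.06 to 1.57 for Retnla, so differences of that size were not detectable here. Retnla changed direction with the libraries used, at -0.24 in all 12 and 0.34 without the 3 that hold muscle RNA (log2 fold change).

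The effect of Dll4 inhibition in grafts that hold ASC is the subject of CAL_Dll4i against CAL. edgeR called no member (0% of all genes), and neither did DESeq2 or voom. Ear2 and Adgre1 were again the 2 at an unadjusted p under 0.05, against 7.42% of all genes, and Ear2 alone did not overlap, against 3.34%. Ear2 had a log2 fold change of -0.67 ± 0.15 (SE), a level in CAL_Dll4i of 0.628 times that in CAL, with an adjusted p of 0.659 by edgeR and 0.072 by DESeq2. Adgre1 had -0.20 ± 0.07 (log2 fold change ± SE, edgeR adjusted p = 0.659). This comparison and the previous one share the CAL libraries, so an extreme CAL group moves both in opposite directions. The estimates were higher for 4 members and lower for 6, with a median log2 fold change of -0.05 beside 0.00 over all genes, and the largest above 0 was that of Timd4 (0.64 ± 0.44, SE). Timd4 had 0.24 without CAL_Dll4i replicate 3 and 1.02 without CAL replicate 1. Retnla had 0.13 ± 0.81, and -1.18 without the 3 libraries that hold muscle RNA.

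CAL_Dll4i against control compares the full treatment with the plain graft. No member was called by edgeR (0% of all genes), DESeq2 or voom, none passed an unadjusted p of 0.05 (6.92% of all genes did), and none had groups without overlap (4.77% did). Ear2 and Adgre1 had log2 fold changes of 0.02 (95% interval from -0.30 to 0.34) and 0.02 (from -0.14 to 0.18). The estimates were higher for 5 members and lower for 5, with a median of 0.00, and 6 of the 10 were within 0.1 of 0 on the log2 scale. The estimates farthest from 0 were those of Timd4 at 0.49 ± 0.44 and Cd163 at -0.36 ± 0.58 (log2 fold change ± SE), and the widest interval was that of Retnla (from -1.92 to 1.70). Timd4 had 0.084 without CAL_Dll4i replicate 3, and Cd163 had 0.34 without control replicate 3.

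**Figure D3:**
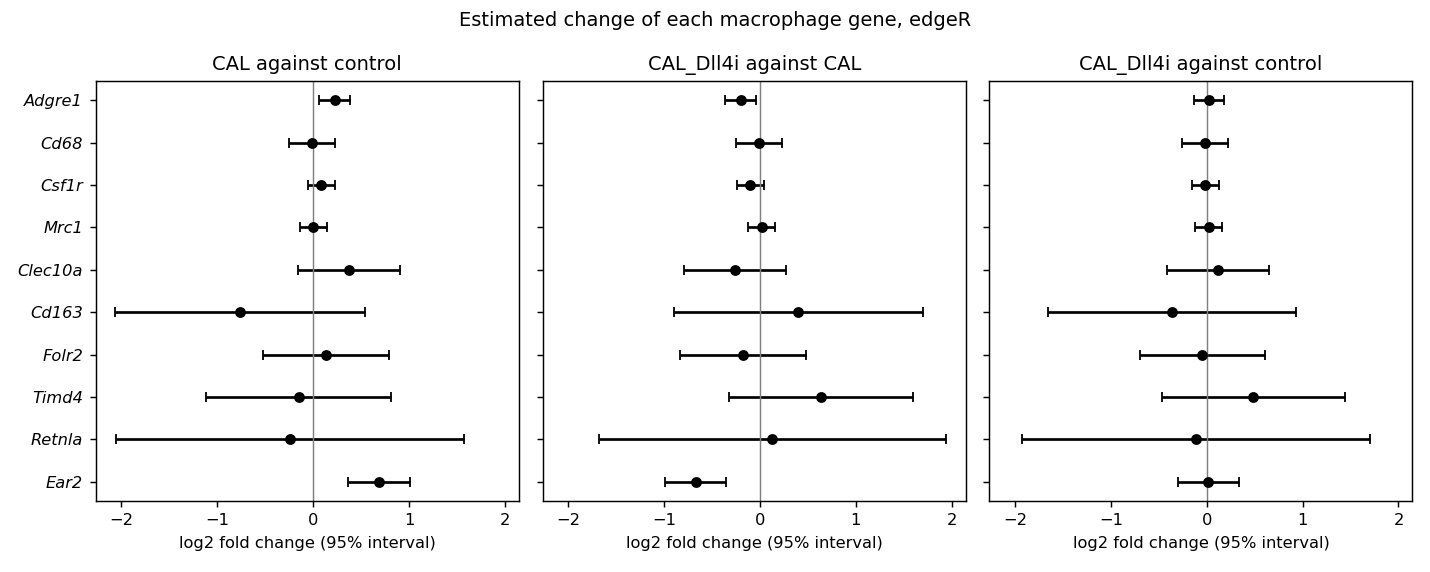
Log2 fold change (point) and 95% interval (bar) of each gene from edgeR in the 3 comparisons, with a line at 0. Intervals of Ear2 and Adgre1 lie above 0 for CAL against control and below 0 for CAL_Dll4i against CAL, without passing the adjusted test, while those of Cd163 and Retnla are the widest.

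Adipocyte genes had higher estimates in CAL, as Ear2 did. All 15 of the list, such as Adipoq and Plin1, were higher in CAL than in control by estimate, as were 48.4% of all genes, and 12 of them were so at an unadjusted p under 0.05, as were 7.01% of all genes. edgeR called none of the 15, DESeq2 called 3 and voom 1. Their summed level ran from 1686 to 3000 CPM in control, from 3122 to 4118 in the CAL grafts and from 2556 to 3071 in CAL_Dll4i. With the adipocyte level as a covariate the Ear2 estimate for CAL against control was 0.65 (log2, edgeR adjusted p = 0.661), and without it 0.69 (adjusted p = 0.132). The covariate was the mean log2 CPM of the list, from 4.546 to 6.322 in control and from 6.298 to 7.102 in CAL. These ranges overlap only narrowly, so this fit can hardly tell adipocyte level and group apart. The part of adipocytes in the Ear2 level was not tested. With the level of the macrophage reference list as a covariate the Ear2 estimate was 0.68 (adjusted p = 0.0876), and without the 3 libraries that hold muscle RNA it was 0.83 (adjusted p = 0.29).

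Because Ear2 takes its name from eosinophils, their markers were set beside it. The list has 10 genes, of which 6 were measured, and their summed level ran from 16.4 to 22.9 CPM in control, from 19.1 to 24.0 in the CAL grafts and from 15.3 to 25.3 in CAL_Dll4i, well under that of Ear2 alone. No measured marker was at 0. Prg2, the eosinophil granule major basic protein, read 3.36, 3.21, 1.17 and 5.695 CPM in control, 6.66, 6.90, 6.60 and 6.68 in the CAL grafts and 4.00, 1.67, 5.85 and 3.47 in CAL_Dll4i. Its log2 fold change for CAL against control was 1.00 ± 0.42 (SE), with no overlap and an edgeR adjusted p of 0.314. The other 5 measured markers were not called either, and of all 6 the estimates of 2 were above 0 and of 4 below. Among the surface receptors, Il5ra had a log2 fold change of 0.70 (edgeR adjusted p = 0.635), and 0.21 without CAL replicate 1. Ccr3 had -0.16 (adjusted p = 0.75), and 0.10 without control replicate 3, while Siglecf had -0.32 (adjusted p = 0.569), and -0.12 without CAL replicate 1. The part of eosinophils in the Ear2 level was not tested.

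**Figure D4:**
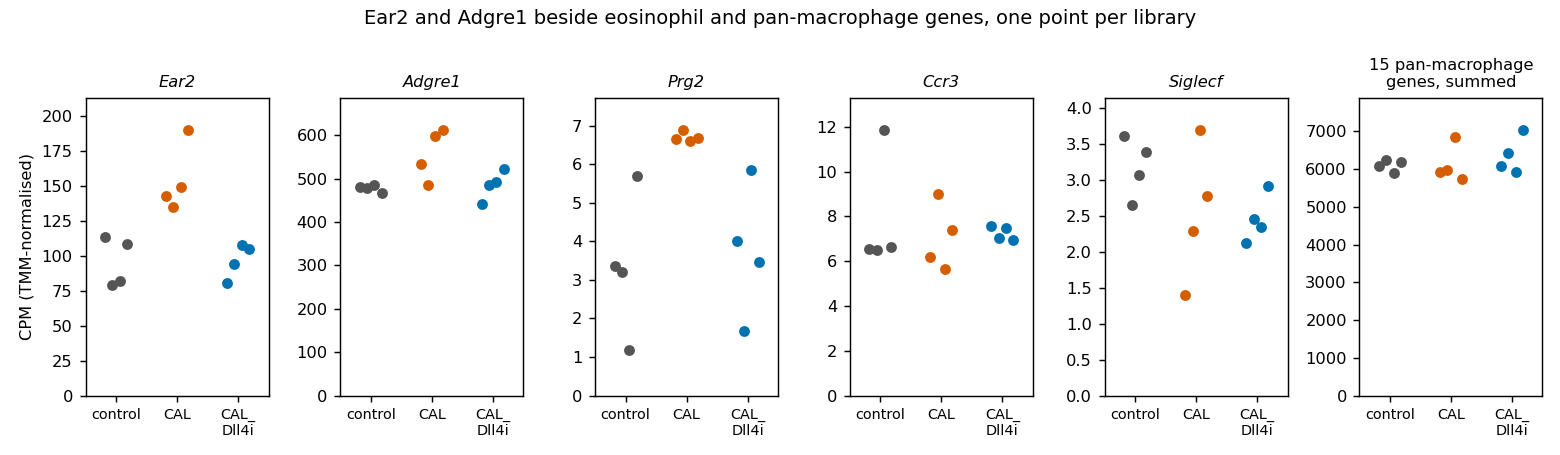
CPM per library (1 point each) of Ear2, Adgre1, the eosinophil genes Prg2, Ccr3 and Siglecf, and the sum of 15 macrophage reference genes, in control, CAL and CAL_Dll4i. Ear2 and Prg2 are highest in CAL, while Ccr3, Siglecf and the macrophage sum overlap between groups.

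The relatives of these genes gave no call by any of the 3 tools. Of 25 measured family members, 1 was at an unadjusted p under 0.05 for CAL against control, beside 14.6% of all genes. It was Havcr2 (TIM-3, the relative of Timd4), with a log2 fold change of -0.42 ± 0.14 (SE, edgeR adjusted p = 0.228). Mgl2, the copy next to Clec10a, had -0.53 (adjusted p = 0.458) where Clec10a had 0.38. Beside 0.69 for Ear2, its copies went both ways, with Ear10 at 0.48 (adjusted p = 0.39) and the scarcer Ear1 at -0.38. Ear10, which shares sequence with Ear2, had 0.30 without control replicate 3 and 0.57 without control replicate 4. Mrc2, the collagen receptor related to Mrc1, had means of 113 ± 15.6 CPM in control and 100.8 ± 12.2 CPM in CAL (mean ± SD, n = 4 each), a log2 fold change of -0.16 (adjusted p = 0.558).

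The ligands and signals upstream of the members were measured through 2 lists. DESeq2 and voom called genes of the macrophage lists that follow for CAL against control only, a difference between comparisons that was not itself tested. In that comparison DESeq2 called 3.75% of the genes it adjusted and voom 0.474% of all genes. At an unadjusted edgeR p under 0.05, 7.01% of all genes were higher and 7.57% lower. By estimate 48.4% of all genes were higher. Of 11 genes of the colony-stimulating factor axis, none was called by edgeR in any comparison, and for CAL against control 2 were higher at an unadjusted p under 0.05, the receptor chain Csf2ra (0.26 ± 0.08, log2 fold change ± SE) and the adaptor Dok1 (0.22 ± 0.07), with edgeR adjusted p of 0.196 and 0.207. DESeq2 called Dok1 alone of these, and voom none. Of 17 genes of interleukin 4 and 13 signalling, edgeR called none either, and for CAL against control 1 was higher and 5 lower at an unadjusted p under 0.05, with a median log2 fold change of -0.02. The smallest p-values were those of Crlf2, the thymic stromal lymphopoietin receptor (0.32 ± 0.07, edgeR adjusted p = 0.119), and Il13ra2, the decoy receptor for interleukin 13 (-1.57 ± 0.33, adjusted p = 0.132).

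Il13ra2 was lowest in CAL. It stood at 1.91 ± 0.917 CPM in control, 0.647 ± 0.119 in the CAL grafts and 1.68 ± 0.30 in CAL_Dll4i (mean ± SD, n = 4 each). CAL did not overlap with either group. Against control this hangs on a small margin, with CAL replicate 2 at 0.7902 CPM and control replicate 1 at 0.7943. The edgeR adjusted p for CAL_Dll4i against CAL was 0.659. DESeq2 called Il13ra2 for CAL against control (adjusted p = 0.00208) and not for CAL_Dll4i against CAL (0.124). Stat6 itself was level, with log2 fold changes of -0.02, 0.04 and 0.02 in the 3 comparisons.

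Other products of alternative activation had estimates in both directions. Of 20 genes in that list, such as Arg1, Chil3 and Ccl24, none was called by edgeR, and 7 had higher and 13 lower estimates for CAL against control, 1 and 2 of them at an unadjusted p under 0.05, with a median log2 fold change of -0.14. Chil3, which encodes a chitinase-like protein shared with neutrophils, had the smallest p (log2 fold change -2.94 ± 0.77, SE, adjusted p = 0.178 by edgeR and 0.00623 by DESeq2), at 25.5 ± 33.2 CPM in control against 3.32 ± 0.765 in CAL (mean ± SD, n = 4 each). Control replicate 4 carried that control mean, at 74.9 CPM where the other 3 averaged 8.998 ± 4.87 CPM (SD, n = 3), and without it the log2 fold change was -1.44 (edgeR adjusted p = 0.289). Neutrophil genes had lower estimates in CAL than in control for 10 of 10 measured, 5 at an unadjusted p under 0.05, where 7.57% of all genes were lower. Their summed level ran from 176.5 to 635 CPM in control and from 53.2 to 178 in CAL. The same control replicate 4 is the library at 635 CPM, the next control being at 240.5, and their part in the Chil3 level was not tested. For CAL_Dll4i against CAL the effector list had 13 higher and 7 lower estimates and a median of 0.08.

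Genes of perivascular resident macrophages, the cell kind that Cd163 and Folr2 also mark, had lower estimates in CAL for the most part, with no call by edgeR. Of 21 measured, 15 were lower for CAL against control, with a median log2 fold change of -0.21, where 48.4% of all genes were higher. At an unadjusted p under 0.05, 4 were lower and 1 higher, against 7.57% and 7.01% of all genes. In sum, the CAL grafts (3092 to 3387 CPM) lay within the range of control (3091 to 3880). Control replicate 3 was the library at 3880, and the other controls had 3091, 3284 and 3289. The part of that library in the lower estimates of the list was not tested. The 2 smallest p-values were those of the chemokine Ccl8 (-0.77 ± 0.17, log2 fold change ± SE, edgeR adjusted p = 0.153) and of Gas6, a ligand of Axl and Mertk (-0.45 ± 0.12, adjusted p = 0.169). For CAL_Dll4i against CAL, 18 of the 21 were higher, as were 51.3% of all genes, with a median of 0.25. At an unadjusted p under 0.05, 2 were higher, as were 4.47% of all genes. For CAL_Dll4i against control 9 were higher and 12 lower. CAL replicate 3 had the lowest mean log2 CPM of the list, 4.84, where the other CAL libraries had 5.17, 5.37 and 5.22. DESeq2 called 3 of the 21 for CAL against control, Ccl8 (adjusted p = 0.00235), Gas6 (0.0203) and Wfdc17 (0.0492), the last named after its values were seen, and voom called none.

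Uptake of dying cells, the task in which Timd4 takes part, was covered by 17 measured genes. None was called by edgeR, and for CAL against control 5 were higher and 3 lower at an unadjusted p under 0.05, while DESeq2 called 6 and voom 3. Over all genes these shares were 7.01% higher, 7.57% lower, 3.75% by DESeq2 and 0.474% by voom. Axl, a receptor tyrosine kinase that binds dying cells through Gas6, stood at 233 ± 16.7 CPM in control, 320.3 ± 31.3 in the CAL grafts and 254 ± 12.9 in CAL_Dll4i (mean ± SD, n = 4 each), with all 4 CAL libraries above the other 8. Its log2 fold change for CAL against control was 0.46 ± 0.07 (SE), with an adjusted p of 0.0969 by edgeR, 2.95e-05 by DESeq2 and 0.0436 by voom. For CAL_Dll4i against CAL it was -0.34 ± 0.07, with an edgeR adjusted p of 0.659. Stab2, a scavenger receptor also of lymphatic and sinusoidal endothelium, was 1.44 ± 0.25 higher in CAL than in control (log2 fold change ± SE, edgeR adjusted p = 0.0998).

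The haemoglobin and iron genes that serve the cargo of Cd163 had small estimates. Of 15 measured, 9 had higher and 6 lower estimates for CAL against control, 2 at an unadjusted p under 0.05 and none called by edgeR, with a median log2 fold change of 0.06. Blvra, biliverdin reductase, had the smallest p (0.24 ± 0.06, SE, adjusted p = 0.166 by edgeR and 0.0188 by DESeq2). Of 9 folate genes beside Folr2, 1 was at an unadjusted p under 0.05 in that comparison, Mthfd2, at -0.34 ± 0.12 (log2 fold change ± SE, edgeR adjusted p = 0.246).

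No gene of the lipid-laden or inflammatory macrophage lists was called by edgeR in any comparison, and DESeq2 called 3 for CAL against control. Of 15 lipid-associated genes, 7 were higher and 8 lower by estimate for CAL against control. Lpl, the lipoprotein lipase that is also in the adipocyte list, had 0.26 ± 0.06 (log2 fold change ± SE), with an adjusted p of 0.166 by edgeR, 0.0162 by DESeq2 and 0.0436 by voom. By estimate 13 of the 15 were higher for CAL_Dll4i against CAL, as were 51.3% of all genes. At an unadjusted p under 0.05, 4 were higher, as were 4.47% of all genes, with the secreted protein osteopontin, Spp1, at 0.73 ± 0.23 (edgeR adjusted p = 0.659). For CAL_Dll4i against control 13 were again higher, as were 49.6% of all genes, with a median of 0.16. At an unadjusted p under 0.05, 6 were higher, as were 3.86% of all genes. These comparisons share libraries with each other.

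Of 16 inflammatory genes, 13 were lower by estimate for CAL against control, where 48.4% of all genes were higher, with a median log2 fold change of -0.19. At an unadjusted p under 0.05, 4 were lower, as were 7.57% of all genes. The co-stimulator Cd80 had the smallest p (-0.44 ± 0.12, SE, adjusted p = 0.178 by edgeR and 0.029 by DESeq2). Il6, the cytokine interleukin 6, had -2.86 ± 0.89 (adjusted p = 0.209 by edgeR and 0.0283 by DESeq2), and -1.24 without control replicate 3, which read 16.35 CPM where the other 3 averaged 1.76 ± 0.242 (SD, n = 3). For CAL_Dll4i against control 14 of the 16 were lower, with a median of -0.30, where 49.6% of all genes were higher. At an unadjusted p under 0.05, 2 were lower, as were 3.06% of all genes. For CAL_Dll4i against CAL 6 were higher and 10 lower. Monocyte genes summed to 1105 to 1307 CPM in control and 906 to 1113 in CAL, and dendritic cell genes, relevant to Clec10a, to 152 to 214 and 126 to 238.

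Macrophage factors that bind the motifs above were present throughout. Spi1, the gene of PU.1, averaged 134 CPM in control and 145 CPM in CAL, a log2 fold change of 0.11 with an edgeR adjusted p of 0.35. Across 17 transcription factors, 4 were higher and 4 lower at an unadjusted p under 0.05 for CAL against control, with 0 calls by edgeR, 2 by DESeq2 and 0 by voom. Nr1h3 (LXR-alpha, a sterol sensor) led those higher with 0.46 ± 0.14 (log2 fold change ± SE, edgeR adjusted p = 0.195), or 0.29 without CAL replicate 4, followed by Irf5 with 0.21 ± 0.06 (adjusted p = 0.195). The 4 lower, named after their values were seen, were Tfec (-0.49), Runx1 (-0.24), Spic (-0.42) and Cebpb (-0.49). DESeq2 called Nr1h3 and Tfec. The C/EBP genes of the list went both ways, with Cebpa among those higher at 0.19 and Cebpb lower.

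Across the 12 libraries the members did not vary as a block. Pearson's r between log2 CPM values, given as a description over libraries that share depth and tissue makeup, ran from -0.611 to 0.816 over the 45 pairs, with a median of 0.135 and 8 pairs above 0.5. The highest was between Ear2 and Adgre1 (Spearman's rho 0.692), which fell to 0.554 after centring each group and to 0.577 without CAL replicates 3 and 4. Cd163 and Retnla had r = 0.754 (rho 0.783, 0.755 after centring), and Folr2 and Clec10a r = 0.726 (rho 0.811, 0.737 after centring). Timd4 and Cd68 had the lowest, -0.611.

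Cd163 ran with some perivascular macrophage genes over the 12 libraries, in part through its 2 most extreme libraries. Of the 21 genes of that list, 10 had r above 0.5 with Cd163 and 7 ranked among the 100 genes nearest to it of 18550, including Fcna (ficolin, r = 0.879), the lectins Cd209f (0.870) and Cd209g (0.804), and Cbr2 (carbonyl reductase, 0.848). Without those 2 libraries, CAL replicate 3 and control replicate 3, only 4 of the 10 kept r above 0.5, Cd209g (0.839), Cd209f (0.787), Cbr2 (0.761) and Fcrls (0.594). Lyve1 and F13a1 had 0.472 and 0.475, Fcna 0.391 and Pf4 0.326, while Vsig4 and Ednrb had -0.312 and -0.433. These genes of the list were named after their values were seen. Cd209f read 1.99, 1.48, 9.80 and 3.63 CPM in control, 1.67, 4.18, 1.15 and 3.82 in the CAL grafts and 2.90, 4.38, 5.50 and 1.53 in CAL_Dll4i, high and low in the same libraries as Cd163 at both ends. Folr2 had Fcna at rank 6 (r = 0.863) and Fcgrt, the recycling receptor for antibodies, at rank 27 (0.802), while Retnla had Cbr2 at 0.749.

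**Figure D5:**
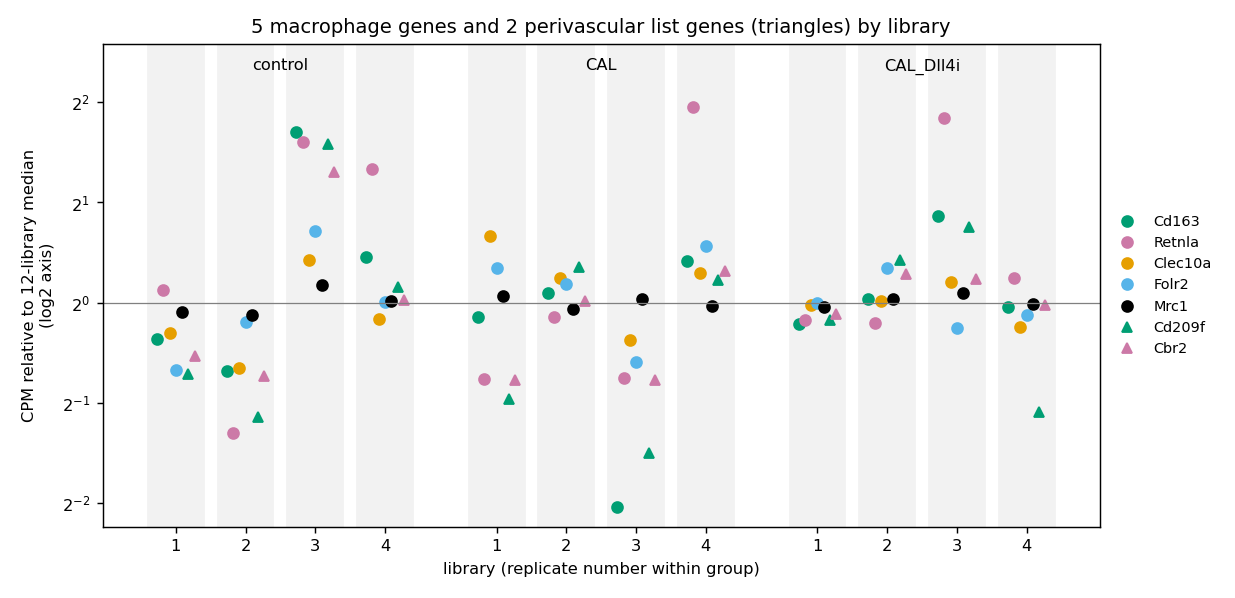
CPM of 5 macrophage genes (circles) and of Cd209f and Cbr2 (triangles) in each library, divided by the gene's median over the 12 libraries, on a log2 axis, with libraries grouped as control, CAL and CAL_Dll4i. Control replicate 3 is high and CAL replicate 3 low for Cd163, Cd209f and Cbr2, while Mrc1 stays near its median in every library.

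The genes nearest to each member by the same measure were mostly outside the macrophage lists. Cd68 went with Pld3 (r = 0.973), a lysosomal nuclease, and Lamtor1 (0.934), a lysosomal scaffold. Clec10a went with Tek (0.935), the angiopoietin receptor of endothelium, and Gpr63 (0.891). Mrc1 went with Gpr146 (0.916) and Abcg2 (0.860), Adgre1 with the aldo-keto reductase Akr1b10 (0.960) and the lysosomal acid phosphatase Acp2 (0.932), and Csf1r with Ifngr1 (0.845) and Usp8 (0.841). Ear2 went with Unc79 (0.917) and Tbck (0.913), Folr2 with the basement membrane protein Nid2 (0.896) and Kcnn1 (0.875), and Timd4 with Mapk11 (0.953) and Btnl2 (0.923). Cd163 went with Stxbp6 (0.905) and Man1a (0.893), and Retnla with Cdh9 (0.855) and Dpp4 (0.854), the last a surface marker of adipose progenitors. Without the 2 libraries farthest from each member's median, r over these 20 pairs ran from 0.439 to 0.959. It was 0.439 for Csf1r with Usp8, 0.652 for Mrc1 with Abcg2 and 0.668 for Cd163 with Stxbp6. These are the 2 highest of 18550 genes each, so high values are what such a search returns, and they are given as a description only.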

How the data were processed

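RNA was measured in 12 libraries of grafted fat, 4 per group. Trizol was used for extraction, and exonic sequence was captured with the SureSelectXT RNA Direct kit from total RNA, per the labels' protocols. HISAT2, StringTie and mm10 are named without versions per the submitters' processing notes. Each library has 3 columns in the deposited table. Its estimated counts, made by the authors, were already whole and needed no rounding. The FPKM values deposited by the authors were not used beyond a look at the file, and the TPM values deposited by the authors (sums 995156 to 998891 per library) gave the levels compared between genes.

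The counts went through edgeR 4.0.16 under R 4.3.3, with TMM scaling, filterByExpr (18551 of 19547 genes kept), and the robust quasi-likelihood test on a shared fit of 12 libraries with 1 coefficient per group, for 3 comparisons, with Benjamini-Hochberg adjustment over all tested genes. The biological coefficient of variation was 0.237. Genes were matched by ID to RefSeq on GRCm38.p6 (18509 of 18551). Likeness between genes is Pearson's r of log2 CPM (prior count 2). Alternatives were RLE scaling, no filter, DESeq2 1.42.0, voom with sample weights (limma 3.58.1), only the groups compared, a replicate block, no libraries with muscle RNA, a macrophage or adipocyte covariate, and each library left out. The code was tested on simulated data. Figures used Python 3.11.15 and matplotlib 3.10.9.

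The 10 members and the 25 other gene lists were chosen with earlier results of these data known. Named genes are the members, up to 2 genes with the smallest p per list and comparison, close family copies, markers of other cell types, and the 2 genes nearest to each member.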

Additional observations from a re-analysis of the deposited data

Results flagged for a closer look

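In 3 of the 30 sets of 4 libraries (10 genes in 3 groups), a single library stood far from the others of its group, by the share of the group's range that separates it from its nearest neighbour (above Dixon's 95% critical value for 4 samples). Chance flags about 1 in 20 such sets. Retnla stood at 31.1 CPM in CAL replicate 4, where the next library had 7.29 (share 0.903). Retnla also stood at 28.8 CPM in CAL_Dll4i replicate 3, with the next at 9.57 (share 0.883). Cd163 stood at 15.6 CPM in the same CAL_Dll4i replicate 3, with the next at 8.79 (share 0.83). That library held 407.5 CPM of skeletal muscle genes in sum, and the part of this in both values was not tested.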

How the results depend on the processing

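The 0 members called by edgeR in each comparison stayed 0 with RLE scaling, no filter, only the groups compared, the replicate block, both covariates, without the libraries that hold muscle RNA, and without each library in turn. DESeq2 and voom each called 1 member for CAL against control, Ear2, at log2 fold changes of 0.69 and 0.75, and 0 in the other comparisons. Of 270 estimates under these settings, 27 changed sign, all of members with estimates of 0.36 or less in size on the log2 scale and none of them called. For CAL against control, the adipocyte covariate gave -0.05998 for Mrc1, -0.19 for Folr2 and 0.0076 for Timd4, and leaving out the muscle libraries gave 0.13 for Cd68 and 0.34 for Retnla. Retnla there was 0.23 with voom and 0.019 with the macrophage covariate. For CAL_Dll4i against CAL, the values were 0.026 for Folr2 with the adipocyte covariate, 0.024 for Cd68 with voom, and, without the muscle libraries, -0.0075 for Mrc1 and -1.18 for Retnla. For CAL_Dll4i against control, they were -0.0057 for Mrc1 and -0.0068 for Clec10a with the adipocyte covariate, and -0.00597 for Mrc1, 0.033 for Folr2, 0.023 for Cd68 and -0.037 for Ear2 without the muscle libraries. Voom gave 0.21 for Cd163, 0.14 for Folr2, 0.026 for Csf1r and 0.46 for Retnla, and the macrophage covariate gave -0.0076 for Adgre1, 0.15 for Cd163, 0.135 for Folr2 and 0.14 for Retnla. The cause of these sign changes was not tested.

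With a library left out, 45 of 360 estimates changed sign, and the ranges of those genes follow. For CAL against control they were -0.037 to 0.068 for Mrc1, -0.045 to 0.45 for Folr2, -0.53 to 0.088 for Timd4, -0.075 to 0.084 for Cd68 and -1.34 to 0.15 for Retnla. For CAL_Dll4i against CAL they were -0.0085 to 0.0397 for Mrc1, -0.10 to 0.044 for Cd68 and -0.60 to 1.23 for Retnla. For CAL_Dll4i against control they were -0.0199 to 0.085 for Mrc1, -0.011 to 0.066 for Adgre1, -0.66 to 0.34 for Cd163, -0.22 to 0.27 for Folr2, -0.041 to 0.013 for Csf1r, -0.084 to 0.025 for Cd68, -0.84 to 0.28 for Retnla, -0.064 to 0.11 for Ear2 and -0.023 to 0.36 for Clec10a. Ear2 kept its direction in every one of these for CAL against control (0.57 to 0.78) and CAL_Dll4i against CAL (-0.73 to -0.55).

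Replicate numbers gave no sign of pairing. Deviations of same-numbered libraries correlated at -0.385 to 0.144 over 12 pairs (median -0.04), and those of different numbers at -0.307 to 0.435 over 36 (median 0.02). A pairing that leaves little trace over all genes would not be seen this way. With the replicate number as a block, 0 members were called in each comparison, Cd68 changed sign for CAL_Dll4i against CAL (0.0015) and so did Retnla for CAL_Dll4i against control (0.035). The low counts of Timd4 (25 to 122 per library) and the spread of Cd163 and Retnla limit what could be seen for these 3 genes.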
